A study of Rattus norvegicus with 15 samples.

Results

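The 5 genes described here encode receptors through which hormones act on the rat kidney, and an enzyme that makes a hormone active inside the cell. They are Pth1r, the receptor for parathyroid hormone, Agtr1a, an angiotensin II receptor, Thrb, the thyroid hormone receptor beta, Nr3c1, the glucocorticoid receptor, and Hsd11b1, the dehydrogenase that regenerates active glucocorticoid. They were chosen by gene symbol in the platform's probe table, and each has 1 probe. They are 5 of 401 genes with a name here, among 26857 probes in all.

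RNA of 8-week-old male Wistar/ST rats was hybridised to 15 arrays that form 5 groups of 3, to see how cisplatin, a platinum drug toxic to the proximal tubule, acts on the kidney. Proximal tubules isolated by microscopy came from rats given saline, 2 mg/kg or 10 mg/kg of cisplatin into the peritoneum, and whole kidneys from rats given saline or 10 mg/kg by the same route. The saline rats, called controls in the labels, received an equal volume, and no animal carried an altered gene. No label says how long after injection the tissue was taken, or that arrays came from separate animals. The p-values therefore cover the variation from array to array, which may be technical.

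As background, parathyroid hormone binds its receptor on proximal tubule cells, draws sodium-phosphate cotransporters out of the luminal membrane and so lets phosphate pass into the urine. Angiotensin II acts through its type 1 receptors, of which rats have a pair of close copies, Agtr1a and Agtr1b, to raise sodium and bicarbonate reabsorption. Thyroid hormone and glucocorticoid act through nuclear receptors that bind DNA, and Hsd11b1 turns inert 11-dehydrocorticosterone back into corticosterone before it reaches Nr3c1.

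Levels are log2 of the array signal after quantile normalization, and every difference is a log2 difference with the standard error of limma's fit over all 15 arrays. A gene was called where limma's adjusted p, corrected over 26601 tested probes, was under 0.05. The files hold no background or detection column, so a fold is a ratio of signals, and a low signal is not known to lie above background. In these bulk samples fewer cells of a type and less RNA per cell cannot be told apart.

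At 10 mg/kg, Pth1r, Agtr1a, Thrb and Hsd11b1 fell in isolated tubules against saline, with log2 differences of -2.70, -2.41, -3.60 and -1.63. Nr3c1 had a difference of -1.12 ± 0.31 and missed the threshold (adjusted p = 0.0505). In whole kidneys Pth1r, Hsd11b1 and Nr3c1 fell (-1.74, -1.47 and -1.23), whereas Thrb (-0.95 ± 0.42) and Agtr1a (0.26 ± 0.51) did not pass. At 2 mg/kg none of the 5 passed in tubules. Of all probes tested, 3.36% were called lower in tubules at 10 mg/kg, 3.53% were called lower in whole kidneys and 0% were called in either direction in tubules at 2 mg/kg.

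Every named gene belongs to a table of 1219 probes that the authors deposited for the series, which they may have picked on these very samples, by a rule that is not stated. Among the 401 named genes 187 (46.6%) were called lower in tubules at 10 mg/kg, with a median difference of -1.28, and 186 (46.4%) in whole kidneys, with a median of -1.24. The members' medians were -2.41 and -1.23, and the medians of all tested probes 0.03 and 0.02. The members' count in whole kidneys, 3 of 5, stands close to the share of named genes, and neither count is independent evidence of a direction.

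**Figure D1:**
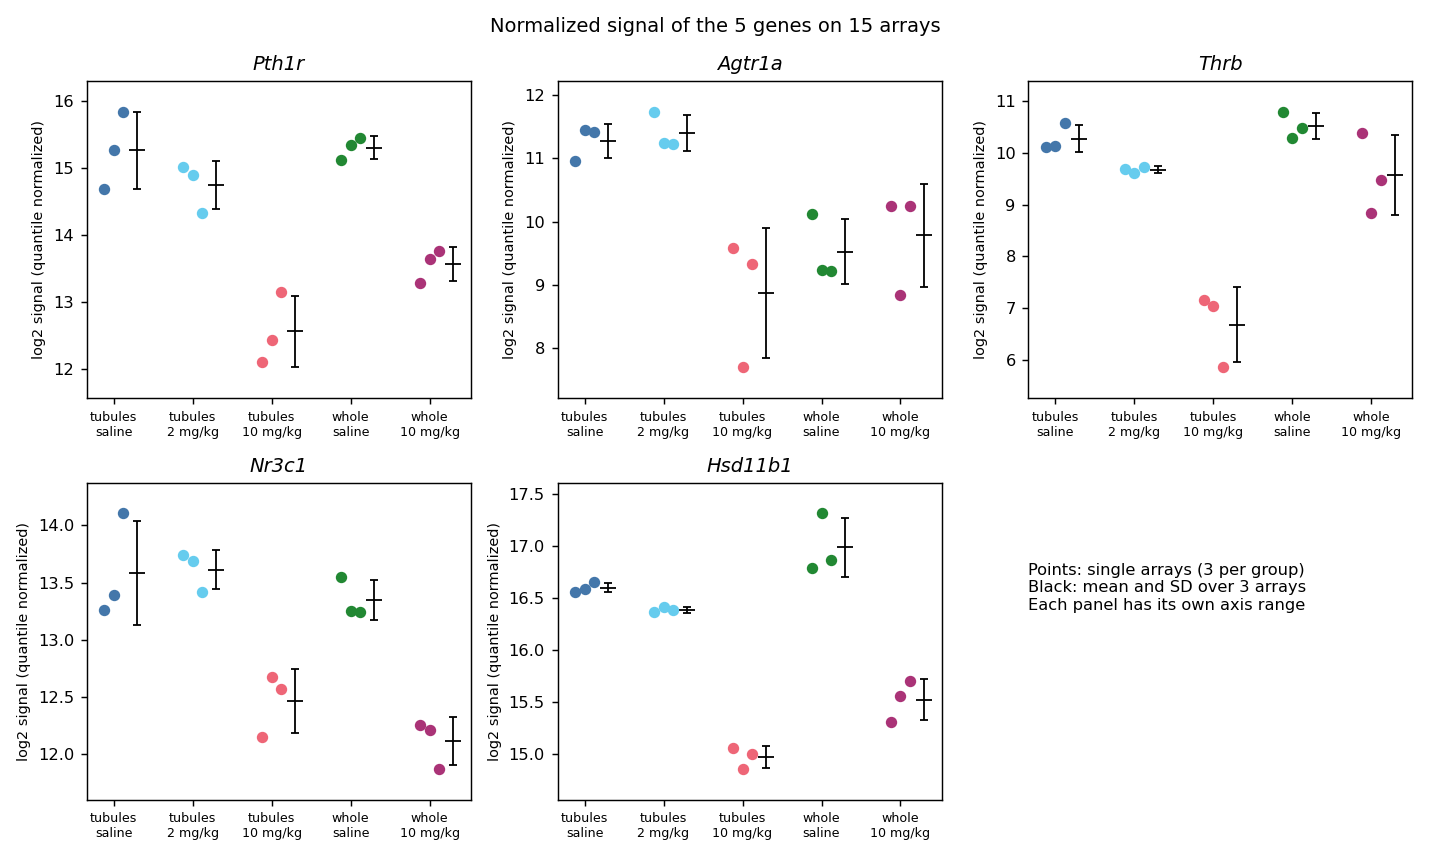
Normalized log2 signal (vertical axis) of each of the 5 genes on all 15 arrays, by group: points are arrays, black marks the group mean and SD over 3 arrays, and each panel has its own axis range. Thrb in tubules at 10 mg/kg sits at 5.85 to 7.15, below every other array for that gene, while the levels of different genes are from different probes and are not comparable.

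The sequence just before each gene's start is shown as a description, and the stretches differ in composition. Whether these sequences bear on the signals was not tested. RefSeq's GRCr8 table held promoters for Pth1r, Thrb, Agtr1a and Nr3c1, the last with 2 starts, of which the one farther upstream is printed. Each line is the 250 bases before the start, 5′ to 3′ on the gene's strand, which is the minus strand for all 4, and Hsd11b1 was not analysed here. Capitals mark a match on either strand to any of 6 motifs, and adjoining capitals can be overlapping matches.
Pth1r, chr8:119595572-119595821: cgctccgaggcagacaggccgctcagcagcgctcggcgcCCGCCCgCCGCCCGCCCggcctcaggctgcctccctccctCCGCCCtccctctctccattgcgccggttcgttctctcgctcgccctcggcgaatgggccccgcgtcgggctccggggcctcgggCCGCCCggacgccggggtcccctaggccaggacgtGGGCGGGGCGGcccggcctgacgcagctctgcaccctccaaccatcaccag
Agtr1a, chr17:34435433-34435682: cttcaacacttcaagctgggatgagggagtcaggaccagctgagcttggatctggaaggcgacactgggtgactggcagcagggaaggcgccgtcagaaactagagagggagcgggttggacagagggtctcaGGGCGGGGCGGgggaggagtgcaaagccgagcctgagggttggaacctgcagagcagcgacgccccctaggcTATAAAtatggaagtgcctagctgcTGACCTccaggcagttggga
Thrb, chr15:10461447-10461696: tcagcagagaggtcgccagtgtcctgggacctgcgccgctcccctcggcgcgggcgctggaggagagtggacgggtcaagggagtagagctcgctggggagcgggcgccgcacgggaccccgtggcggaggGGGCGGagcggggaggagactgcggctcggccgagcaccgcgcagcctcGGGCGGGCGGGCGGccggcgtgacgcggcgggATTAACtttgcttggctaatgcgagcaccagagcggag
Nr3c1, chr18:31614220-31614469: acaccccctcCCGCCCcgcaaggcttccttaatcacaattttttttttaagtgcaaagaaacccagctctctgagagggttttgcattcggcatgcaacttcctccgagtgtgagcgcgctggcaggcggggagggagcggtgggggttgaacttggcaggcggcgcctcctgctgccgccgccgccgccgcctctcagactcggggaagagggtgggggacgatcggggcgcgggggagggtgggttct

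The motifs were GGGCGG (Sp1), TATAAA (the core promoter box), GTTAAT (HNF1), CAAAGTCC (HNF4), AGGTCA (nuclear receptors) and AGAACA (glucocorticoid receptor), each also read as its reverse complement. GGGCGG, or CCGCCC on the other strand, stood in all 4 printed stretches and in 30.5% of 33469 promoters of the same length. The Pth1r stretch was the richest in G and C of the 4 at 77.6%, against 74% for Thrb, 64% for Nr3c1 and 60.8% for Agtr1a. Of the 4, the Agtr1a stretch alone held TATAAA, from 45 to 40 bases before the start, a motif found in 12.9% of all promoters. It also held TGACCT, the reverse of AGGTCA, at 20 to 15 bases before the start, which 14.1% of promoters had on either strand. The Thrb stretch held ATTAAC, the reverse of GTTAAT, at 38 to 33 bases, a motif of 6.45% of promoters. No stretch held CAAAGTCC, found in 1.14% of promoters, or AGAACA, found in 17.5%. The second Nr3c1 start, chr18:31613440-31613689, had 78.4% G and C and matched GGGCGG alone among the motifs.

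Pth1r was high in control tissue. In saline tubules its levels were 14.68, 15.26 and 15.83, and in saline whole kidneys 15.11, 15.34 and 15.44, all between percentiles 97.8 and 99.1 of their arrays' signals. At 2 mg/kg the tubule arrays read 15.01, 14.89 and 14.33, overlapping the saline arrays. At 10 mg/kg they read 12.09, 12.43 and 13.14 in tubules and 13.27, 13.64 and 13.76 in whole kidneys. Every 10 mg/kg array thus lay below every saline array of its tissue. The tubule difference was 6.50-fold (95% interval 3.72 to 11.4, limma adjusted p = 0.000725) and the whole-kidney difference 3.34-fold (1.91 to 5.84, adjusted p = 0.0129). Without scaling the tubule difference was -3.40 and the whole-kidney call was lost (adjusted p = 0.119). In order of mean, control whole kidneys and control tubules did not differ beyond their spread, nor did control tubules and 2 mg/kg tubules. The 10 mg/kg whole kidneys and 10 mg/kg tubules followed below without overlap. Limma did not call the step between those last groups (adjusted p = 0.115).

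Agtr1a was the member whose control level differed most between the tissues. Its levels were 10.96, 11.45 and 11.42 in saline tubules and 11.74, 11.25 and 11.23 at 2 mg/kg. At 10 mg/kg the tubules read 9.58, 7.69 and 9.33, all below the saline range, with replicate 2 the lowest. The fall was 5.30-fold (2.47 to 11.4, limma adjusted p = 0.0121). The call was lost without saline tubule replicate 3 (-2.34, adjusted p = 0.0507) and in a fit of the 2 groups alone (adjusted p = 0.0602), and without 10 mg/kg tubule replicate 2 the difference was -1.82. In whole kidneys the saline arrays read 10.12, 9.24 and 9.21 and the 10 mg/kg arrays 10.24, 8.84 and 10.25. Those groups overlapped, and the interval of the difference ran from -0.85 to 1.36. The probe's sequence is not used here, so whether the probe also picks up Agtr1b, the close copy of Agtr1a, is not known, and its signal may hold both. In the order of means, 2 mg/kg and control tubules overlapped at the top, and the 3 other groups, whole kidneys at 10 mg/kg, control whole kidneys and tubules at 10 mg/kg, overlapped each with the next.

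Thrb had the steepest fall of the 5 in tubules. The saline tubules read 10.11, 10.14 and 10.58 and the 10 mg/kg tubules 7.15, 7.04 and 5.85, which is 12.1-fold lower (6.45 to 22.8, limma adjusted p = 0.00028). It ranked 8 from the lowest among the 401 named genes in that comparison. At 10 mg/kg the probe stood at percentiles 3.53 to 29.96 of the tubule arrays' signals, against 74.5 to 78.9 after saline. At 2 mg/kg the levels were 9.70, 9.60 and 9.74, all below the saline arrays, but the difference of -0.60 had an interval from -1.51 to 0.31. In whole kidneys the saline arrays read 10.80, 10.29 and 10.49 and the 10 mg/kg arrays 10.39, 8.85 and 9.48, and these overlapped (adjusted p = 0.222). The authors' series table, which is scaled by another constant per array and tested over its own probes, gave an adjusted p of 0.0281. Since its probes may have been picked on these samples, and 749 of 1219 were called in this comparison, a pass within it is no support for a call, here or below. Control whole kidneys and control tubules overlapped at the top of the order, 2 mg/kg tubules and 10 mg/kg whole kidneys overlapped in the middle, and 10 mg/kg tubules lay apart at the bottom.

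Nr3c1 moved by about as much in the whole kidney as in the tubules. Saline tubules read 13.26, 13.39 and 14.10 and 10 mg/kg tubules 12.15, 12.68 and 12.57. Saline whole kidneys read 13.55, 13.25 and 13.24 and 10 mg/kg whole kidneys 12.25, 12.22 and 11.87. In both tissues the groups did not overlap, with ratios of 2.17-fold (1.37 to 3.44) and 2.35-fold (1.48 to 3.73). The whole-kidney call (limma adjusted p = 0.0291) was lost when any 1 of its 6 arrays was left out (adjusted p = 0.0547 to 0.103), with only its 2 groups fitted (adjusted p = 0.104), with median centring (adjusted p = 0.122) and without scaling (adjusted p = 0.359). In tubules the 10 mg/kg difference did not pass with any 1 of its 6 arrays left out (-1.28 to -0.86, limma adjusted p = 0.0569 to 0.202). It passed when only probes with all 15 values were tested (adjusted p = 0.0351). It was -1.39 in the authors' series table (adjusted p = 0.00324), where 967 of 1219 probes were called. At 2 mg/kg the tubules read 13.74, 13.69 and 13.42, within the saline range. The 3 groups without 10 mg/kg overlapped in the order of means, as did the pair at 10 mg/kg below them.

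Hsd11b1 had the tightest arrays of the 5 in tubules. The saline tubules read 16.56, 16.59 and 16.65, the 2 mg/kg tubules 16.36, 16.42 and 16.38, and the 10 mg/kg tubules 15.06, 14.85 and 15.004. The high-dose arrays were 3.10-fold lower than saline (2.08 to 4.62, limma adjusted p = 0.0023). The 2 mg/kg arrays lay just below the saline ones without overlap, by 0.21 on average (interval -0.79 to 0.36, adjusted p = 0.9999). In whole kidneys the saline arrays read 16.79, 17.32 and 16.87 and the 10 mg/kg arrays 15.31, 15.56 and 15.70, 2.77-fold lower (1.85 to 4.13, adjusted p = 0.00507). That call was lost with median centring (adjusted p = 0.0926), without scaling (adjusted p = 0.257) and when the 2 groups were fitted by themselves (adjusted p = 0.0778), and without scaling the tubule difference was -2.43. No neighbouring groups overlapped in the order of its means. That order ran from control whole kidneys and control tubules through 2 mg/kg tubules and 10 mg/kg whole kidneys to 10 mg/kg tubules. Limma did not call the step between controls (adjusted p = 0.522), to 2 mg/kg tubules (0.9999) or between tissues at 10 mg/kg (0.24). The step from 2 mg/kg tubules to 10 mg/kg whole kidneys was not tested. How often all probes show such gaps was not counted. At its lowest Hsd11b1 still stood at percentile 98.1 of the array.

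**Figure D2:**
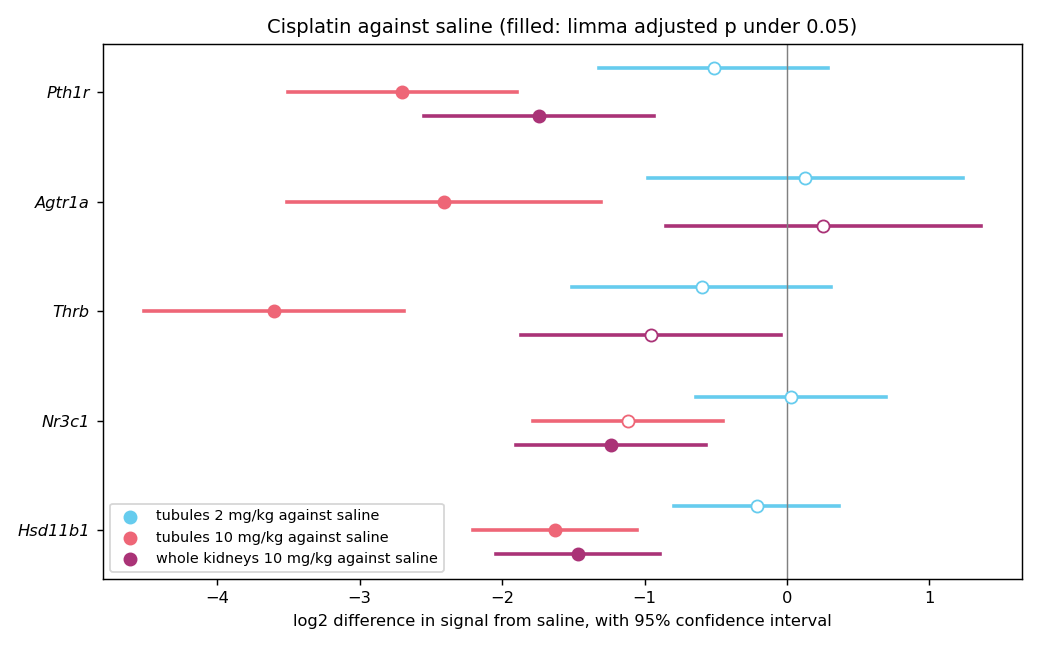
Log2 difference (horizontal axis) of the 5 genes from saline in tubules at 2 mg/kg, tubules at 10 mg/kg and whole kidneys at 10 mg/kg, as points (filled where called, open where not) with 95% intervals from limma's fit. The 10 mg/kg tubule intervals of all 5 genes lie below 0, and those of the 2 mg/kg tubules include 0. At 10 mg/kg the points of Agtr1a and Thrb lie far lower in tubules than in whole kidneys. Limma did not call that difference of responses (adjusted p = 0.2 and 0.128).

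The dose comparison within tubules set 10 mg/kg directly against 2 mg/kg and shares its high-dose arrays with the comparison above. All 5 members were called lower, where 3.77% of all probes and 50.6% of named genes were. The differences were -3.002 ± 0.42 for Thrb (limma adjusted p = 0.000738), -2.54 ± 0.51 for Agtr1a (adjusted p = 0.00799) and -2.19 ± 0.37 for Pth1r (adjusted p = 0.00269). The difference was -1.42 for Hsd11b1, a call lost without scaling (adjusted p = 0.0655), and -1.15 for Nr3c1. The Nr3c1 call (adjusted p = 0.041) was lost without any 1 of the 6 arrays, at an adjusted p of 0.0578 to 0.151, and with median centring (adjusted p = 0.0543), and without 10 mg/kg replicate 2 the Agtr1a difference was -1.95. At 2 mg/kg against saline limma called 0 of 26601 probes. There 903 of the 26601 probes, 22 of the 401 named genes and 0 of the 5 members had an unadjusted p under 0.05. With so few members that count does not set them apart. The intervals of the members still allow a fall of up to 1.51 (Thrb) on the log2 scale.

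The tissue comparisons asked whether the isolated tubules and the whole kidney differed in these genes. Between the controls none of the 5 was called, where 3.59% of all probes were. Agtr1a was 3.37-fold higher in tubules (1.57 to 7.23) with no overlap of arrays, but limma's adjusted p was 0.083. It passed with median centring (2.01, adjusted p = 0.0475). Without scaling it was 2.64 (adjusted p = 0.012), but there the median of all probes stood at 0.61 and 1245 probes were called higher against 70 lower, where the reported fit had 565 and 389. In the authors' series table, with 406 of 1219 probes called, it was 2.02 (adjusted p = 0.00241). Pth1r (-0.04 ± 0.37), Thrb (-0.25 ± 0.42) and Hsd11b1 (-0.39 ± 0.27) were near level in the controls, and the sign of each turned under those 3 scalings.

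After 10 mg/kg the tubules stood below the whole kidneys in Thrb, with a difference of -2.89 ± 0.42 (7.44-fold, limma adjusted p = 0.000816), or -2.18 without scaling. It was the only member called there, where 10.6% of all probes were. The difference between the tissues' responses to 10 mg/kg was -2.65 ± 0.60 for Thrb and -2.66 ± 0.73 for Agtr1a. Both had an unadjusted p under 0.05, 0.000601 and 0.00259, but not an adjusted one (0.128 and 0.2), in a test that called 0.0376% of all probes. In the authors' series table, which differs in scaling and in its probes and had 176 of 1219 called, the adjusted p was 0.00748 and 0.0184. For Pth1r, Nr3c1 and Hsd11b1 it was -0.96 ± 0.53, 0.12 ± 0.44 and -0.16 ± 0.38, with intervals that include 0.

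The lists of other hormone genes were read through the few members with a name, some of which are the 5 genes themselves. Their counts stand against the 46.6% of named genes called lower in tubules at 10 mg/kg and the 46.4% in whole kidneys (3.36% and 3.53% of all probes), and no list is shown to stand apart from the named genes. The parathyroid hormone and phosphate list had 6 named genes of 31, and all 6 fell in tubules at 10 mg/kg, with a median of -2.34. Slc34a1 and Slc34a3, the sodium-phosphate cotransporters that parathyroid hormone regulates, fell by 2.09 ± 0.29 and 1.93 ± 0.34. Pdzk1, a scaffold that holds them at the membrane, fell by 1.72 ± 0.27, and Slc9a3, the luminal sodium-hydrogen exchanger, by 2.99 ± 0.49. Cubn, an endocytic receptor for vitamin D binding protein, fell by 2.58 ± 0.40. In whole kidneys 3 of 6 fell, close to the share of named genes. They were Pth1r, Pdzk1 (-1.26) and Cubn (-3.93), while Slc34a1 had -0.79 and an adjusted p of 0.13. The whole-kidney call of Pdzk1 was lost with median centring (adjusted p = 0.154). In control tissue Slc34a3 was 5.99-fold and Slc9a3 4.73-fold higher in tubules than in whole kidneys, and Slc34a1 2.42-fold. Cubn (0.39), Pdzk1 (0.95) and Pth1r (-0.04, interval -0.85 to 0.76) were not called there. The Slc9a3 and Slc34a1 calls were lost when some 1 array was left out, for example control whole kidney replicate 3 (adjusted p = 0.0566 and 0.0921).

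Of the renin-angiotensin list 3 of 22 had a name, Agtr1a among them, and all 3 fell in tubules, where 46.6% of named genes did. The others were Anpep, an aminopeptidase that breaks down angiotensin peptides, at -2.75 ± 0.40, and Nox4, an oxidase that makes reactive oxygen species, at -2.44 ± 0.50. In whole kidneys Anpep alone fell, by 1.99, and Nox4 stood at 0.01 ± 0.50 beside 0.26 for Agtr1a. Nox4 read 7.76 to 7.92 in saline whole kidneys (percentiles 43.6 to 46.4), a signal not known to lie above background, so a fall from it may not show. In the controls, as a ratio to that signal, Nox4 was 33.8-fold higher in tubules. Anpep was 3.37-fold lower there, a call lost without control whole kidney replicate 3 (adjusted p = 0.0687) and with 4 of the other arrays left out in turn. It was also lost with median centring (-1.32, adjusted p = 0.19) and without scaling, where the difference was -0.69 (adjusted p = 0.568).

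The thyroid hormone list had 4 named genes of 26, of which 3 fell in tubules at 10 mg/kg. Dio1, the deiodinase that makes triiodothyronine, fell by 3.45 ± 0.29 (limma adjusted p = 2.1e-05) and Crym, a cytosolic protein that binds thyroid hormone, by 1.35 ± 0.27. The Crym call was lost with only the arrays compared (adjusted p = 0.0993). Slc16a10, a carrier of aromatic amino acids and thyroid hormones, was at 0.02 ± 0.49 in tubules. In whole kidneys Dio1 and Crym fell (-1.64 and -1.43), and Slc16a10 rose by 2.07 ± 0.49, while Thrb did not pass. Slc16a10 was dim in saline whole kidneys (percentiles 10.2 to 42.5), so the size of its rise is uncertain. The Slc16a10 call was lost without control whole kidney replicate 3 (adjusted p = 0.0839) or 10 mg/kg replicate 1 (adjusted p = 0.0728), and those of Dio1 and Crym with median centring (adjusted p = 0.0536 and 0.133).

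Of the glucocorticoid list 5 of 24 had a name. Klf15, a transcription factor gene induced by glucocorticoid, fell by 2.07 ± 0.31 in tubules and by 2.78 ± 0.31 in whole kidneys. Fkbp5, a chaperone gene that is also a classic target of the receptor, had 0.12 ± 0.58 in tubules and 1.94 ± 0.58 in whole kidneys (adjusted p = 0.0627). Cdkn1a, a cell cycle inhibitor gene that glucocorticoid and p53 both induce, rose by 3.97 ± 0.57 and 2.93 ± 0.57. In the list of other hormone genes, 4 of 39 were named. Prlr, the prolactin receptor, fell by 1.91 ± 0.42 in tubules and 2.67 ± 0.42 in whole kidneys. Ghr, the growth hormone receptor, fell by 3.12 ± 0.67 in whole kidneys, where its 10 mg/kg arrays spread from 6.24 to 9.68. The whole-kidney call of Ghr was lost when the whole-kidney arrays were fitted by themselves (adjusted p = 0.146). In tubules Ghr had -1.88 ± 0.67 and did not pass (adjusted p = 0.142). The tubule call of Prlr was lost without saline tubule replicate 1 (adjusted p = 0.0684) or 10 mg/kg tubule replicate 3 (adjusted p = 0.071). Gfra2, a neurturin receptor, fell by 3.70 ± 0.70 in tubules and had -0.77 ± 0.70 in whole kidneys. Guca2a, the guanylin hormone gene, rose by 3.89 ± 0.44 in whole kidneys and had 0.63 ± 0.44 in tubules.

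**Figure D3:**
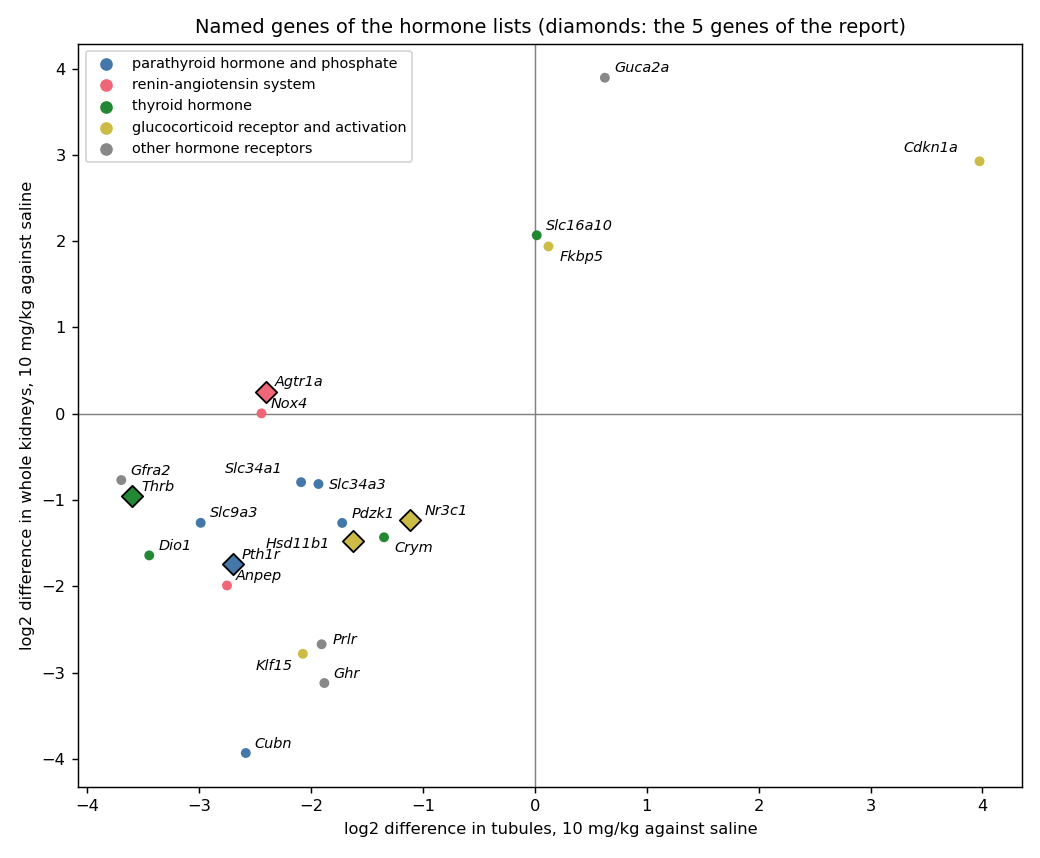
Log2 difference at 10 mg/kg against saline in tubules (horizontal axis) and whole kidneys (vertical axis) for every named gene of the 5 hormone lists, coloured by list, with the 5 members as diamonds. Most genes lie lower left, Agtr1a and Nox4 sit near the horizontal line at 0, and Cdkn1a (3.97 and 2.93) is at the upper right.

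Over the 15 arrays each member was set beside the other named genes with a value on every array, 398 in all, by Pearson's r of log2 signal. These r describe points that share groups and arrays. Pth1r was most like Miox (0.973), the inositol oxygenase gene, Pepd (0.971), a dipeptidase gene, and Dio1 (0.951). Hsd11b1 was most like the genes of metabolic enzymes Qprt (0.973), Mccc1 (0.971) and Upb1 (0.966). Nr3c1 was most like Fam20c (0.953), a secretory pathway kinase gene, Cubn (0.950) and Klf15 (0.946). Thrb was most like Pccb (0.908), a propionyl-CoA carboxylase subunit gene, Cxxc5 (0.907) and Hspa4 (0.895). Agtr1a was most like Abcb9 (0.927), a lysosomal peptide transporter gene, Gfra2 (0.860) and Xrcc4 (0.859), a DNA repair gene. At 10 mg/kg Abcb9, Gfra2 and Xrcc4 had 0.04, -0.77 and 0.89 in whole kidneys and -1.64, -3.70 and -3.12 in tubules. All named here were picked for likeness on these same arrays, so a shared pattern is no separate support.

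**Figure D4:**
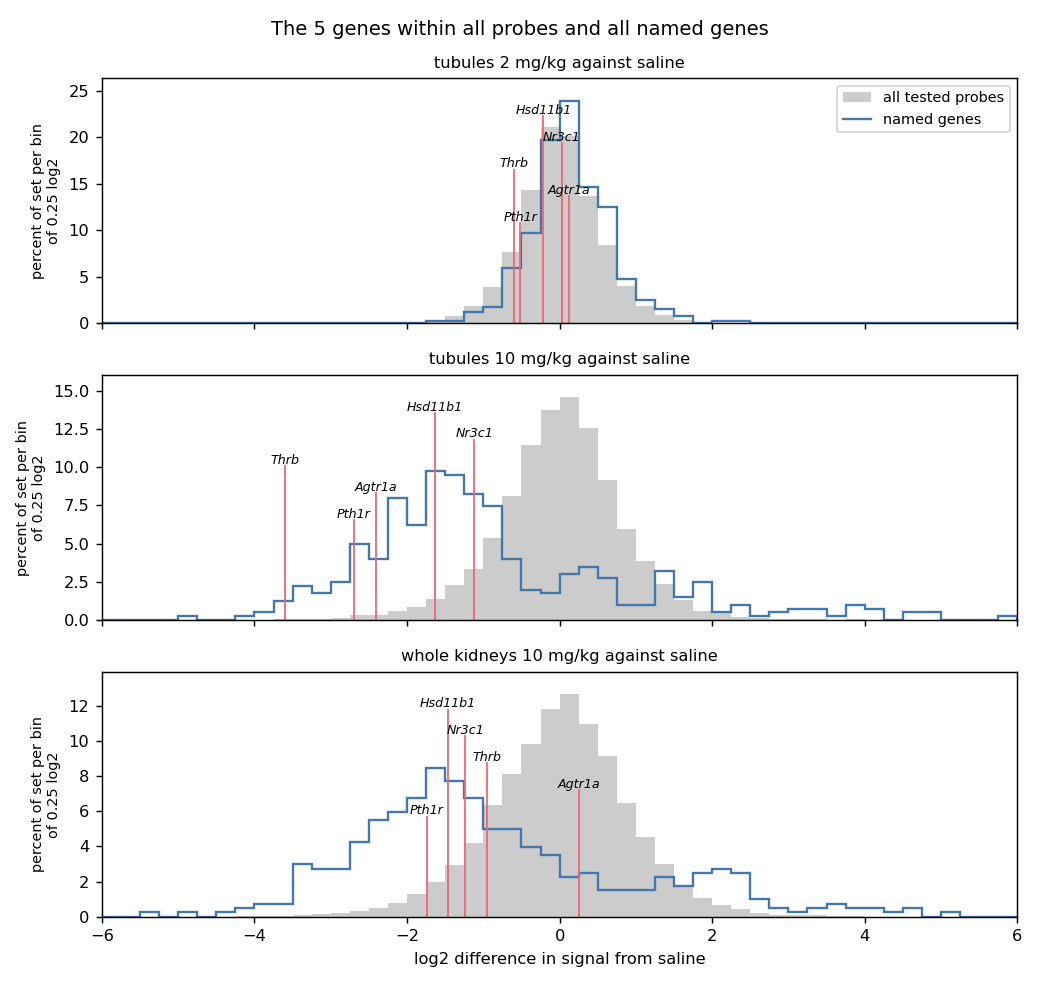
Share of probes in percent per bin of 0.25 (vertical axis) by log2 difference from saline (horizontal axis) in tubules at 2 mg/kg, tubules at 10 mg/kg and whole kidneys at 10 mg/kg, with all tested probes in grey, the 401 named genes as a blue line and the 5 members as labelled red lines whose heights carry no value. All probes have medians of 0.03 and 0.02 at 10 mg/kg and the named genes of -1.28 and -1.24, and Thrb lies in the left tail in tubules.

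Markers of cell types and libraries moved beside these genes, and their part in the members' falls was not tested. Of 14 markers of the early proximal tubule 9 had a name, and their summed normalized signal was 1122227 to 1744471 in saline tubules, 265977 to 329639 in 10 mg/kg tubules, 427538 to 503907 in saline whole kidneys and 200640 to 294974 in 10 mg/kg whole kidneys. Slc34a1 alone made up 55.9 to 80.8% of that sum on each array, and it and Cubn also stand in the phosphate list. In the controls 6 of the 9 were higher in tubules, with Slc5a2, the luminal glucose carrier, at 8.74 ± 0.69. After 10 mg/kg 7 of 9 fell in tubules and 5 in whole kidneys, the latter near the 46.4% of named genes called lower there. In tubules 46.6% of named genes were called lower. In whole kidneys Slc5a2 had 1.12 ± 0.69 and Slc4a4, a bicarbonate carrier, 0.53 ± 0.42. Slc5a2 was already dim in saline whole kidneys, at 7.45 to 9.01 (percentiles 37.5 to 62.3), so a fall there may not show. Its 10 mg/kg whole-kidney arrays spread from 7.18 to 10.85. Of 5 named late proximal tubule markers 4 fell in tubules and 5 in whole kidneys. In the controls most of these went the other way from the early markers, with 0 called higher in tubules, 3 called lower and a median of -3.31. Slc22a25, 1 of the 5, stood higher in saline tubules (12.75 to 13.43) than in saline whole kidneys (11.18 to 11.54), but was not called. All 5 named injury markers rose in both tissues, Havcr1 by 4.94 and 3.67. Among the 401 named genes 41 were called higher at 10 mg/kg in tubules and 56 in whole kidneys, and among all 26601 probes 659 and 779. Of 11 leukocyte markers C1qa and C1qc had a name and neither passed, with a summed signal of 4043 to 9330 in saline and 10154 to 21614 in 10 mg/kg tubules, and 3481 to 5226 and 9985 to 14639 in whole kidneys. Markers of glomerulus, endothelium, distal segments, stroma and red cells had no named probe here, so their levels were not analysed. Arrays correlated at 0.857 to 0.962 within groups and 0.763 to 0.943 between them, and the array least like the rest was control whole kidney replicate 3 (mean r 0.813). Without it Pth1r and Hsd11b1 were still called lower in whole kidneys, and Nr3c1 was not (adjusted p = 0.0592).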

How the data were processed

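For each array the authors deposited a file of linear intensity values, 1 for a probe, per the file headers. How spots were filtered or corrected for background is not stated, and there is no detection column. Files listed 26207 to 26547 probes, with array medians of 201 to 470. The authors' series table holds a ratio per probe, which equals the signal over a constant of that array. The log2 values of the deposited signals were quantile normalized (limma 3.58.1, R 4.3.3), and dim probes were kept. Testing needed at least 2 values in every group, with a mean per group over all 15 arrays, eBayes, two-sided tests and Benjamini-Hochberg adjustment. Precision is limited by the 3 arrays a group. The fit was tested on simulated data.

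Symbols came from GEO's platform annotation: 401 probes had 1 symbol, 2 had several and 26454 had none here, and all 401 matched RefSeq GRCr8 by Entrez identifier. The text names the 5 members, the 3 named genes most like each, up to 3 called genes of smallest adjusted p per hormone list and main comparison, and up to 2 genes per marker list. Members and lists were chosen with earlier results of these data known. Alternatives were median centring, no scaling, only probes with all 15 values, the series table, the replicate number as a block, only the arrays compared, and leaving out each array. Same-numbered arrays deviated together at r of -0.144 to 0.133, so the numbers were not taken to pair samples.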

Additional observations from a re-analysis of the deposited data

How the results depend on the processing

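Of 450 values over 35 results on members under alternatives, 390 kept direction and side of the threshold, 27 lost a call, 8 gained one and 25 turned sign. Members called at 10 mg/kg against saline were 3 to 5 in tubules over all alternatives, 4 of 5 as reported, and 3 to 4 when 1 array was left out. In whole kidneys they were 1 with median centring, 0 without scaling, 1 with only the arrays compared and 2 whichever array was left out, against 3 reported. Between doses they were 3 without scaling (5 reported). Between controls they were 1 with median centring, without scaling and in the series table (0 reported), and for the difference of the responses 2 in the series table. With the replicate block, members called between doses fell to 4 (Nr3c1 adjusted p = 0.0781) and in whole kidneys to 2 (Nr3c1 adjusted p = 0.0569), and no other member's call changed.

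The signs that turned belonged to differences that were not called, such as -0.04 for Pth1r and -0.39 for Hsd11b1 between controls. In the controls, Pth1r, Thrb and Hsd11b1 were 0.43, 0.0304 and 0.11 with median centring, 1.06, 0.66 and 0.74 without scaling, and 0.45, 0.0475 and 0.13 in the series table. Nr3c1 was -0.0275 at 2 mg/kg without scaling, and its difference of responses was -0.021 with median centring, -0.31 without scaling and -0.0363 in the series table. Agtr1a in whole kidneys was -0.0479 without scaling. Leaving out 1 array gave -0.0375 to 0.22 for Agtr1a and -0.13 to 0.29 for Nr3c1 at 2 mg/kg, -0.33 to 0.25 for Pth1r and -0.0244 to 0.40 for Nr3c1 between controls, -0.0459 to 0.38 for the difference of responses of Nr3c1, and, without a change of sign, -2.76 to -1.82 for Agtr1a in tubules at 10 mg/kg. Without scaling the median of all probes moved by 0.61 between controls, by -0.32 at 10 mg/kg in tubules, by 0.30 between tissues at 10 mg/kg, by -0.13 at 2 mg/kg and by -0.14 between doses, where median centring gave 0.11.

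Probes called also moved. At 10 mg/kg in tubules 1553 became 917 without scaling, 967 in the series table, 656 with only the arrays compared and 956 to 1174 with 1 array left out. At 2 mg/kg 23 were called in the series table and 0 to 1 with 1 array left out. Between doses 1711 became 1010, 956, 1098 and 927 to 1447 in that order. In whole kidneys 1717 became 675 with median centring, then 356, 749, 522 and 1147 to 1366. Between controls 954 became 406 in the series table, 293 with only the arrays compared and 552 to 798 with 1 array left out. Between tissues at 10 mg/kg 2813 became 1550 with median centring, then 1248, 450, 977 and 1779 to 2434. For the difference of responses 10 became 2 with median centring, 2 without scaling, 176 in the series table, 0 with the replicate block, 0 with only the arrays compared and 0 to 15 with 1 array left out. The series table has fewer probes, perhaps picked on these samples, and another scaling, and the arrays compared are fewer; other causes were not tested. No paired design is stated. Signals cannot be set against background here, which limits low values such as Thrb in 10 mg/kg tubules.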
